A study of Mus musculus with 8 samples.

Results

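Among the cells of the mouse organ of Corti preparations was a stromal population that carried Fst, Inmt, Cxcl12, Dpep1 and Ctxn3 messages. Its members were chosen from the measured counts: a barcode was kept when it had at least 500 detected genes and less than 25% of its UMIs from mitochondrial genes, and was gated when at least 3 of those 5 genes had a UMI, Ptprc, Pecam1 and Epcam had none, and fewer than 3 of Ccl11, Hgd, Aldh1a2, Gpr83, Lmntd1, Slc6a13 and Osr2 were detected. A UMI (unique molecular identifier) is a tag that marks 1 captured mRNA molecule. The gate took 605 of 6023 kept barcodes, out of 8061 barcodes in the 8 libraries. All mice carried 4 alleles: the inducible recombinase Fgfr3iCre+, the transgene Atoh1-HA+, the hair cell reporter Chrna9-GFP+, and the red reporter Rosa26-CAG-loxP-stop-loxP-tdTomato+. Tamoxifen switches on the Atoh1 transgene and tdTomato under the Fgfr3 driver, which is directed at Deiters' and pillar cells and not at stroma. Tamoxifen was injected at P12-13 in the groups Coch + Tmx P26 (3 libraries) and Coch + Tmx P33 (2 libraries), and the groups Coch P12 (2 libraries) and Coch P33 (1 library) were not injected. P12, P26 and P33 are postnatal days. Because no P12 animal was injected, age and tamoxifen cannot be told apart between P12 and the induced groups, and only the 1 uninjected P33 library separates them.

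The cochlea is lined and underpinned by mesenchymal cells: fibrocytes of the lateral wall and spiral limbus, the tympanic border cells under the basilar membrane, and the mesothelial layer of Reissner's membrane. These cells lay down collagens and proteoglycans, carry potassium ions away from the sensory epithelium, and form barriers between the fluid spaces. The lateral walls were pulled off during the dissection of these samples. Of the genes that chose the cells, Fst encodes follistatin, a secreted protein that binds and neutralises activins, Inmt encodes a methyltransferase of indoleamines, Cxcl12 is a chemokine that signals through Cxcr4, Dpep1 is a membrane dipeptidase that splits cysteinyl dipeptides and leukotriene D4, and Ctxn3 is a small membrane protein of the cortexin family.

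Library totals ran from 3972800 to 13423524 UMIs, and the gated cells of a library together held from 205696 to 712362. The median gated cell had between 3653.5 and 7849 UMIs, with a median of 2.9% to 4.3% mitochondrial UMIs. The library labelled Coch + Tmx P26 rep 3 went against its label in the targeted gene: Atoh1 stood at 12.3 CPM (UMIs per 1000000 UMIs) over its kept cells, against 90.5 to 524 in the other 4 injected libraries and 17.5 to 23.7 in the 3 uninjected ones. Chrna9 over the kept cells of that library stood at 0.712 CPM. It was at 32.9 to 139 in the other 4 injected libraries and 3.41 to 9.43 in the 3 uninjected ones. Whether that library came from injected mice was not tested. The counts of genes that rest on that library are therefore also given without it, with values it moved. Within the gated cells Atoh1 lay between 4.86 and 42.8 CPM, with both extremes in Coch + Tmx P33, and Chrna9 had 2 UMIs in all. No gated barcode was shared between libraries.

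The 5 genes of the rule were found in many combinations. Fst, Inmt and Cxcl12 alone made up 189 cells (31.2%), the same 3 with Ctxn3 139 cells (22.98%), the same 3 with Dpep1 86 cells (14.2%), and all 5 together 53 cells (8.76%). Cells with 5 of the genes tended to be the deeper ones: in Coch + Tmx P33 rep 2 the median was 8722.5 UMIs with 5 genes and 3750 with 3. Just outside the rule lay 316 kept cells with 2 of the 5 genes, 69 with at least 3 that had a UMI of Ptprc (36), Pecam1 (13) or Epcam (35), and 23 set aside for the other stromal genes. By definition the rule genes were high in the gated cells, and their levels are given as a description. Fst was at 884 and 801 CPM in the P12 libraries, at 1179, 1602 and 914.5 in Coch + Tmx P26, at 1245 and 1142 in Coch + Tmx P33, and at 1265 in Coch P33. Inmt was at 656 and 571 CPM at P12, 590, 470 and 984.5 in Coch + Tmx P26, 423 and 673 in Coch + Tmx P33, and reached 1023 in Coch P33, so that the highest level was in the uninjected P33 library and the groups overlapped. Cxcl12 was at 467 and 552 CPM at P12 and between 817 and 1317 in the 6 later libraries. Dpep1 was the least abundant of the 5 at P12, at 18.97 and 45.6 CPM, and was at 86.5 to 198 in the later libraries. Ctxn3 was highest in Coch + Tmx P26 rep 1, at 354 CPM, and between 138 and 243 CPM in the other 7. For Fst, Cxcl12 and Dpep1 the P12 libraries lay below every later library, which is not read as a result because these genes chose the cells.

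The label of stromal cell was checked against defining markers, which were mixed. Col1a2, a chain of type I collagen, was at 469 to 3613 CPM and had a UMI in 83.1% of gated cells when every cell was thinned to 2000 UMIs (94.7% at full depth), against 12.03% (24.6%) of the macrophage barcodes of the same libraries, which should lack it and serve as the level of free RNA. Pdgfra, the platelet-derived growth factor receptor of mesenchyme, was at 112 to 327 CPM. The other type I chain, Col1a1, had 2 UMIs in all gated cells, and Dcn, or decorin, was at 97.2 to 1628 CPM, so that 364 of the 605 cells had 2 or more of Col1a2, Col3a1 and Dcn. Kcnj8 and Abcc9, which form an ATP-sensitive potassium channel typical of pericytes, were at 135 to 289 and 196 to 428 CPM, but the pericyte and smooth muscle genes Acta2, Myh11, Notch3 and Rgs5 had 1, 0, 3 and 7 UMIs. Dmp1, known as an osteocyte gene, was at 322 to 859 CPM, whereas the osteoblast gene Bglap had 29 UMIs in all. The population is therefore named here by its genes only. Some droplets also held messages of other cells: 78 gated cells had 2 or more macrophage genes and 12 had neuron genes (86 with either), 26 of the macrophage-positive cells being in Coch P12 rep 2. The 5 hemoglobin and erythroid genes summed to 486 to 14950 CPM and the 7 macrophage genes to 60.7 to 1795 CPM, highest in Coch + Tmx P33 rep 2; their part in the results below was not tested, but each count of changed genes was repeated without the 86 droplets.

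The share of kept barcodes in the gate was low at P12 and higher later. It was 3.18% (95% exact binomial interval 2.32 to 4.25) and 7.60% (5.94 to 9.56) in the P12 libraries. In Coch + Tmx P26 it was 18.7% (16.1 to 21.6), 14.6% (11.8 to 17.8) and 11.2% (8.76 to 14.0), while Coch + Tmx P33 had 7.77% (5.58 to 10.5) and 11.99% (9.71 to 14.6), and the uninjected Coch P33 12.05% (9.51 to 15.0). The lower P33 library injected with tamoxifen thus stood next to the higher P12 library, with overlapping intervals that cover counting error only. The later libraries averaged 12.7% ± 3.67 (SD, n = 6) and the P12 libraries 5.39% ± 3.13 (SD, n = 2), so the later ones were 7.32 points higher. When every barcode was thinned to 2000 UMIs before the gate, the means were 9.01% and 2.58%. Taken over stromal barcodes only, the means were 38.6% and 13.4%. With that P26 rep 3 library left out, the difference in share of kept barcodes was 7.63 points. These shares are a description with no test, because they count UMIs of the rule genes, and 3 of the 5, Fst, Cxcl12 and Dpep1, were at lower CPM in the gated cells of both P12 libraries. More cells of this kind, fewer of the others, and more rule gene mRNA per cell cannot be told apart.

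**Figure D1:**
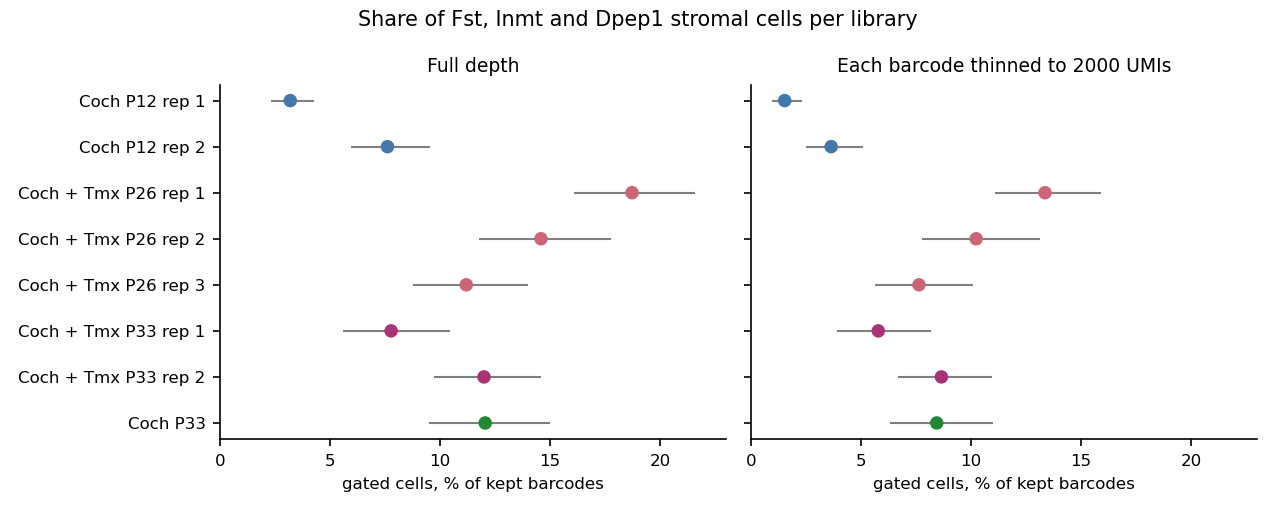
Percent of kept barcodes in each library that fell in the gate, at full depth (left) and with every barcode thinned to 2000 UMIs before the gate (right); points are libraries coloured by group and lines are 95% exact binomial intervals. The P12 libraries, at 3.18% and 7.60%, lie at the low end, with Coch + Tmx P33 rep 1 at 7.77% beside them at full depth.

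What the gated cells carried beyond the rule genes was set against 2 other groups of cells from the same libraries. The 1446 other stromal cells were kept barcodes outside the gate that had no UMI of Ptprc, Pecam1 or Epcam and 2 or more of Col1a2, Col3a1 and Dcn. Of these, 256 had 2 or more of the 5 rule genes, with 68 in Coch P12 rep 1 and 60 in Coch P12 rep 2. The 576 cells of the Aldh1a2 and Ccl11 gate had the mirror image of the rule: 3 or more of Ccl11, Hgd, Aldh1a2, Gpr83, Lmntd1, Slc6a13 and Osr2 and fewer than 3 of the 5 rule genes; 504 cells belonged to both sets. Counts were summed per library and set, and log2 differences with standard errors (SE) come from edgeR's quasi-likelihood fit with the library as a block, over 8 libraries. Because the gated cells were chosen on the UMIs of these same cells, the differences describe the population and are no test of it. For scale, 1319 of 8657 genes (15.2%) passed an adjusted p of 0.05 against the other stromal cells, 682 higher (7.88%) and 637 lower (7.36%), and 1722 of 7446 (23.1%) against the Aldh1a2 and Ccl11 gate, 859 higher (11.5%) and 863 lower (11.6%); both fits use the same gated counts. With the library labelled Coch + Tmx P26 rep 3 left out these counts were 1088 and 1453.

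Several extracellular matrix genes were among the largest differences from other stromal cells, while matrix genes as such were mixed: of 5 fibrillar collagens tested 1 was higher and 1 lower (median log2 difference -0.18), and of 13 basement membrane genes 6 were higher and 3 lower (0.30). The other stromal cells, unlike the gated ones, were chosen on Col1a2, Col3a1 and Dcn, which can bias the collagen counts. Against the Aldh1a2 and Ccl11 gate, not chosen on collagens, 2 of 6 fibrillar collagens were higher and 1 lower (-0.06). Cemip, which encodes a hyaluronan-degrading protein, had a median of 524 CPM over the 8 libraries in gated cells (lowest 242, highest 729), 44.3 in the other stromal cells (8.86 to 85.9) and 7.41 in the Aldh1a2 and Ccl11 gate (2.98 to 12.4). The ranges were far apart in all 8 libraries, with log2 differences of 3.47 ± 0.20 (SE) and 5.87 ± 0.17. Smoc1, a secreted matricellular protein that modulates BMP signalling, ran from 98.6 to 385 CPM in gated cells, 12.1 to 49.5 in other stromal cells and 2.98 to 12.4 in the Aldh1a2 and Ccl11 gate. Its lowest values in gated cells were those of the 2 P12 libraries. Fbln5, or fibulin-5, a builder of elastic fibres, had 54.8 to 176 CPM against 3.94 to 16.9 in other stromal cells (log2 difference 3.52 ± 0.26), and Mfap4, a glycoprotein of elastic microfibrils, 171 to 618 against 30.4 to 86.2 (2.84 ± 0.16). The highest Mfap4 value was that of Coch P33.

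Elastic fibre genes were mostly higher as a list: of 12 tested members 8 were higher and 1 lower than in other stromal cells, with a median log2 difference of 0.53, where the median of all genes tested was -0.02. Besides Fbln5 and Mfap4 these included Fbn2 (1.28 ± 0.15), a fibrillin, Eln (1.49 ± 0.26), elastin itself, at 39.9 against 13.8 CPM on average, and Mfap2 (0.78 ± 0.12). Fbln1 was the lower one (-1.09 ± 0.28), and Fbn1, the main fibrillin, stood at -0.35 ± 0.21. Of the small leucine-rich proteoglycans, which coat collagen fibrils, 5 of the 7 tested that took no part in defining either set were higher than in other stromal cells and 0 lower, with a median of 1.58: Ogn (osteoglycin, 2.60 ± 0.14), Fmod (fibromodulin, 2.09 ± 0.44), Omd (osteomodulin, 1.72 ± 0.18), Bgn (biglycan, 1.58 ± 0.11) and Prelp (0.96 ± 0.13). Dcn helped to define the other stromal cells and was lower in the gated cells there (-2.59 ± 0.48), and it was also lower than in the Aldh1a2 and Ccl11 gate, where it took no part in the choice, at 97.2 to 1628 CPM against 1354 to 10030. Ogn was not used by the rule, but was chosen as a marker of these cells with earlier results of these data known. It had a UMI in 69.4% of gated cells at 2000 UMIs (85.9% at full depth). The shares were 17.5% (30.2%) of other stromal cells and 5.26% (13.0%) of macrophage barcodes. The median depths of the 3 sets were 4464, 6120.5 and 6839 UMIs.

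**Figure D2:**
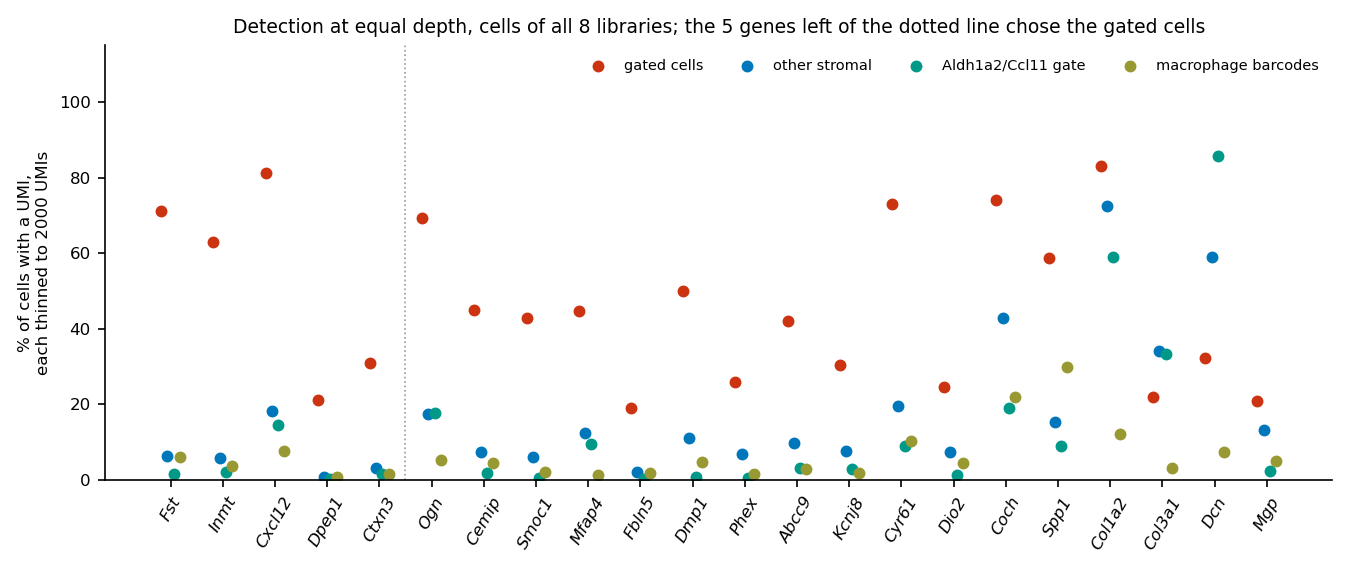
Percent of cells with at least 1 UMI of each gene after thinning every cell to 2000 UMIs, pooled over the 8 libraries, for gated cells, other stromal cells, the Aldh1a2 and Ccl11 gate and macrophage barcodes; the 5 genes left of the dotted line chose the gated cells. Cemip, Smoc1, Mfap4, Dmp1 and Cyr61 reach 42.7% to 73.0% of gated cells and at most 19.6% of the other 3 sets, whereas Dcn is the reverse, with 32.1% of gated cells and 85.7% of the Aldh1a2 and Ccl11 gate.

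Genes known from bone cells differed in both directions. Of 6 osteoblast genes tested against other stromal cells 1, Dmp1, was higher and 2, Bglap (-5.05 ± 0.47) and Ibsp (-3.57 ± 0.67), were lower, while against the Aldh1a2 and Ccl11 gate 4 of 4 tested were higher. Dmp1, an acidic phosphoprotein of mineralised matrix, had 322 to 859 CPM in gated cells and 14.8 to 256 in other stromal cells (log2 difference 2.56 ± 0.25), and was listed at 0 in 3 of the 8 libraries of the Aldh1a2 and Ccl11 gate, whose highest value was 8.34. It had a UMI in 50.0% of gated cells at 2000 UMIs (66.9% at full depth) against 4.76% (9.77%) of macrophage barcodes. Phex, the endopeptidase that acts with Dmp1 in phosphate handling, had 91.3 to 266 CPM against 1.42 to 72.4 in other stromal cells (2.79 ± 0.32), and 25.99% (46.1%) of gated cells had a UMI. Mgp, matrix Gla protein and an inhibitor of calcification, was less even: 168.6 to 1616 CPM in gated cells, 17.2 to 829 in other stromal cells and 4.79 to 46.4 in the Aldh1a2 and Ccl11 gate. It was therefore apart from the Aldh1a2 and Ccl11 gate in every library (4.59 ± 0.31), but overlapped with the other stromal cells (0.90 ± 0.30, higher in 7 of 8 libraries, not past the threshold).

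The matricellular genes Cyr61 and Ctgf, both of the CCN family and both known as targets of the Hippo pathway's co-activator YAP, were high together. Cyr61 ran from 800 to 2066 CPM in gated cells (median 1303), from 98.2 to 416 in other stromal cells and from 34.7 to 177 in the Aldh1a2 and Ccl11 gate. Ctgf ran from 84.3 to 299, 6.89 to 53.0 and 6.25 to 23.8 CPM in the same order. Cyr61 is also an immediate-early gene, and of the 11 immediate-early genes tested against other stromal cells, which did not include it, 8 were higher and 0 lower with a median log2 difference of 0.79. Immediate-early genes rise during tissue dissociation in many cell types, and the part of handling in these differences was not tested.

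Genes of the activin, BMP and TGF-beta pathways were detected in unequal measure, with few or no UMIs of the ligand genes Inhba, Inhbb and Mstn. Of the activin, BMP and TGF-beta ligands, Inhbb and Mstn had 0 UMIs in all 605 gated cells, where 3 UMIs of the 3527835 summed would be 0.85 CPM, and Inhba, the subunit of activin A, had 8. Gdf10, a TGF-beta family ligand, was at 53.1 to 267 CPM against 10.3 to 51.1 in other stromal cells (log2 difference 2.34 ± 0.26), and Bmp4 was at 132 against 114 CPM on average (0.18 ± 0.12). Over the list, 2 of 7 ligands tested were higher and 1 lower, 3 of 9 receptors higher and 0 lower, 2 of 7 antagonists higher and 1 lower, and 4 of 12 mediators and targets higher and 1 lower. Id1 and Id3, which BMP signals switch on in many cells, were among those higher (0.99 ± 0.18 and 0.77 ± 0.10). Fstl1, a follistatin-like secreted protein, was a little higher (0.54 ± 0.10), while the BMP antagonists Nog and Grem1 had 13 UMIs and 1 UMI in all. Of the chemokine list, 0 of 10 tested genes were higher and 1 lower, and Cxcr4, the receptor of Cxcl12, had 5 UMIs.

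Growth factor, hormone and patterning genes also differed. Igf1, insulin-like growth factor 1, was at 342 to 842 CPM against 53.4 to 487 in other stromal cells (1.77 ± 0.22), and Igf2 at 219 against 96.0 CPM on average (1.12 ± 0.16), whereas Igfbp2, a binding protein, was lower (-0.59 ± 0.09). Dio2, the deiodinase that turns thyroxine into the active thyroid hormone, was at 41.1 to 418 CPM against 10.7 to 104 in other stromal cells (2.08 ± 0.17) and at most 14.9 in the Aldh1a2 and Ccl11 gate. Hhip, which binds and restrains Hedgehog ligands, was at 15.2 to 119 CPM, against 0.98 to 25.6 in other stromal cells, and had no UMI in 7 of 8 libraries of the Aldh1a2 and Ccl11 gate. Dner, a Notch-type transmembrane protein, was at 216 to 491 CPM against 23.5 to 99.9 (2.70 ± 0.18). Of 22 mesenchymal transcription factors tested 9 were higher and 4 lower, among the higher Foxd1 (1.66 ± 0.32) and Foxc2 (1.31 ± 0.19), and Wnt5a and Wnt6 were higher among the Wnt ligands (1.18 ± 0.13 and 1.31 ± 0.14), with 4 higher and 4 lower of 13 Wnt pathway genes. Kcnj8 and Abcc9, the channel subunits, had log2 differences of 2.22 ± 0.18 and 2.34 ± 0.16, and the water channel Aqp1 1.65 ± 0.23. Of 3 endothelial genes tested 1 was higher, the cadherin Cdh5 (1.72 ± 0.20), and 2 were lower, Flt1 (-2.81 ± 0.33) and Emcn (-1.18 ± 0.11); cells with a UMI of the endothelial gene Pecam1 had been left out of both sets.

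Other genes were low in the gated cells. Notum, a Wnt-inactivating enzyme, was at 0 to 28.1 CPM against 118 to 226 in other stromal cells (-4.10 ± 0.29), and Cldn11, a claudin of tight junctions, at 34.0 to 142 against 448 to 1691 (-3.67 ± 0.23). Met, the receptor of hepatocyte growth factor, was at 2.44 to 19.5 CPM against 56.3 to 129, and Dapl1 at 0 to 13.0 against 36.0 to 138. Ptn, or pleiotrophin, a secreted heparin-binding growth factor, was at 1478 to 4412 CPM against 8326 to 12410 (-2.38 ± 0.16). All 4 genes known from tympanic border cells (Emilin2, Notum, Rarres1, Otor) were lower against both sets, Emilin2 by -2.53 ± 0.15 and Otor by -1.36 ± 0.14 against other stromal cells; for Otor against the Aldh1a2 and Ccl11 gate the direction turned when cells were thinned to 2000 UMIs (0.27). Retinoid genes were split, with 2 of 9 higher and 4 lower: Stra6, the retinol-binding protein receptor, was at 0.57 against 15.3 CPM on average, and Crabp2, a retinoic acid carrier, at 16.5 against 50.9 (-1.68 ± 0.22).

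**Figure D3:**
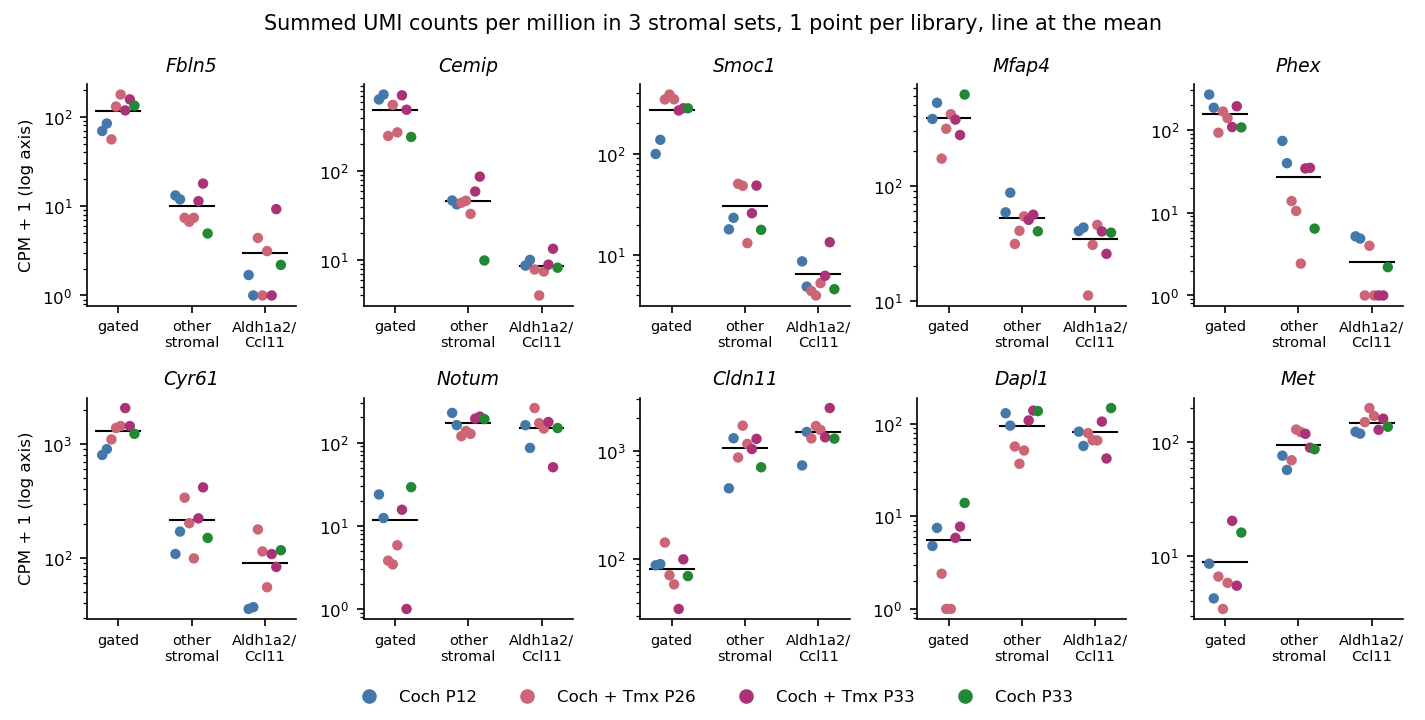
Summed UMI counts (CPM + 1, log axis) of 10 genes in gated cells, other stromal cells and the Aldh1a2 and Ccl11 gate, 1 point per library coloured by group, with the mean of the 8 libraries as a line. The gated cells lie above both other sets for Fbln5, Cemip, Smoc1, Mfap4, Phex and Cyr61 and below them for Notum, Cldn11, Dapl1 and Met; a value of 0 CPM is drawn at 1.

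The next comparison asked how the gated cells at P26 and P33 differed from those at P12; the rule did not use age. Of 7775 genes tested by edgeR's quasi-likelihood test over summed counts, with all 4 groups in 1 fit, 71 (0.913%) passed an adjusted p of 0.05, 36 higher later (0.463%) and 35 lower (0.450%), and the median log2 change of all genes was -0.02. Of the 71, 2 are rule genes (Cxcl12 and Dpep1), which chose the cells and are read as no result. In simulated counts of this design the test found 94% of genes changed 4-fold and 27% of those changed 2-fold, so smaller changes could be missed. The changed genes were drawn only from those with higher counts, so these shares do not cover genes with few UMIs. The count rested on single libraries: it was 22 without Coch P12 rep 1, 38 without Coch + Tmx P33 rep 1, 121 without Coch + Tmx P26 rep 1 and 122 without Coch + Tmx P26 rep 2, and 74 when the library labelled Coch + Tmx P26 rep 3 was left out, where the log2 changes of the 47 listed and named genes moved by at most 0.294. Coch P12 rep 2 decided which genes were called: without it there were 63, of which 28 were among the 71. Without the 86 droplets with macrophage or neuron genes it was 98, 65 of them among the 71.

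Collagens and some other matrix genes fell. Col2a1, the type II collagen of cartilage and of the tectorial membrane and spiral limbus, was at 1662 and 1593 CPM in the P12 libraries and at 490, 343 and 195.5 in Coch + Tmx P26, 194.5 and 200.4 at Coch + Tmx P33 and 56.2 at Coch P33. Every later library lay below both P12 libraries, and the lowest was the uninjected one (log2 change -3.25 ± 0.28 SE, edgeR adjusted p = 9.24e-05). Col11a1, which nucleates type II fibrils, was at 1146 and 628 CPM at P12 and 43.2 to 112 later (-3.35 ± 0.24, adjusted p = 4.58e-05), and its partner Col11a2 at 273 and 192 against 8.65 to 88.4 (-2.98 ± 0.29). Type IX collagen, which decorates the same fibrils, moved alike: Col9a1 was at 747 and 1081 CPM at P12 and 99.4 to 223 later (-2.47 ± 0.23), and Col9a3 at 334 and 285 against 9.65 to 39.3 (-3.68 ± 0.34). Of the type I and type III chains, Col1a2 was at 3509 and 3613 CPM at P12 against 469 to 1426 later (-2.14 ± 0.20), and Col3a1 at 527 and 657.5 against 34.0 to 154 (-2.97 ± 0.27). Col15a1, a collagen of the basement membrane zone, was at 129 CPM in both P12 libraries and at most 4.86 in the later ones (-5.49 ± 0.41). Of 6 fibrillar collagens tested 4 fell and 0 rose (median log2 change -2.24), and 2 of 11 basement membrane genes fell, the other being Sparc (-1.34 ± 0.23), a collagen-binding matricellular protein. Among the elastic fibre genes 3 of 11 fell, the microfibril genes Fbn1 (-1.75 ± 0.33), Fbn2 (-1.98 ± 0.33) and Mfap2 (-1.15 ± 0.21), and the list's median was 0.17. Col11a1, Col11a2, Col15a1, Col1a2, Col2a1, Col3a1 and Col9a3 stayed past the threshold in every alternative in which they were tested, leaving out each library included.

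Of 10 genes of the insulin-like growth factor axis tested 2 fell, Igf2 and H19, and 0 rose. Igf2, a fetal growth factor, was at 743.5 and 233 CPM at P12 and between 101 and 159 later (-1.80 ± 0.33, edgeR adjusted p = 0.0233), the P12 libraries differing from each other more than the later ones did. H19, the non-coding RNA next to Igf2, was at 15.2 and 116 CPM at P12 and at most 2.81 later. Of 10 thyroid hormone and glucocorticoid genes tested 1 fell and 0 rose: Dio3, the deiodinase that inactivates thyroid hormone, which was at 114 and 84.6 CPM at P12 and 2.16 to 31.4 later (-3.73 ± 0.53, adjusted p = 0.00438), while Dio2 was not called. Other single genes among the largest falls belonged to neither list. Cpz, a carboxypeptidase that binds Wnt proteins, was at 231 and 290 CPM at P12 and 2.16 to 63.2 later (-4.17 ± 0.36), lowest in Coch P33. Nrep was at 383 and 513 CPM at P12 and 24.3 to 70.6 later (-3.15 ± 0.26), and Gadd45a, a growth arrest and DNA damage gene, at 98.6 and 130 CPM against 12.2 to 24.1 (-2.60 ± 0.32). Kcnk2, a leak potassium channel, was at 163 and 174 CPM at P12 and 4.86 to 62.7 later (-2.49 ± 0.35).

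Among the genes that rose were several secreted proteins. The gene Coch, which shares its name with the group labels, encodes cochlin, a major extracellular protein of cochlear fibrocytes that is mutated in an inherited deafness. It was at 1168 and 863 CPM at P12, 12230, 4548 and 9546 in Coch + Tmx P26, 5197 and 6450 in Coch + Tmx P33, with 3567 in Coch P33 (log2 change 2.63 ± 0.36, edgeR adjusted p = 0.00325). All later libraries lay above the P12 ones, and the call was lost without either P12 library. Macrophage barcodes, read above as the level of free RNA, also carried this gene. At full depth 18.6% of them had a UMI of it in Coch P12 rep 1, and 28.2% to 65.2% in the injected libraries. Gated cells had 56.8% and 76.9% to 93.3%, with depths not matched. After thinning, the highest macrophage share was 44.4%, in the uninjected Coch P33 library, which had 18 macrophage barcodes. The part of free RNA in the rise was not tested. Spp1, or osteopontin, was at 193.5 and 231 CPM at P12 and at 7766, 1879 and 2116, then 4278 and 3083, in the injected groups, but at 283 in the uninjected Coch P33 library. Its log2 change over the 3 later groups (3.02 ± 0.54, edgeR adjusted p = 0.0211) thus rests on the libraries labelled as injected. Coch + Tmx P26 rep 3, at 2116 CPM, is 1 of these and went against its label in Atoh1. The part of injection in the rise was not tested. The call was lost without Coch + Tmx P33 rep 1 or either P12 library. At full depth Spp1 had a UMI in 39.5% of macrophage barcodes in Coch P12 rep 1, and in 25.6% to 69.6% in the injected libraries. Gated cells had 20.45% and 65.1% to 88.4%. After thinning, the lowest macrophage share for Spp1 was 5.56%, in the uninjected Coch P33 library with its 18 macrophage barcodes. Whether macrophages made Spp1 themselves was not tested, so their shares are not read as its level of free RNA. The part of free RNA in the rise of Spp1 was not tested either. Of 8 small leucine-rich proteoglycans tested 3 rose and 0 fell: Prelp from 37.9 and 45.6 CPM to 154 to 273 (2.58 ± 0.31), Bgn from 186 and 324 to 707 to 997 (1.75 ± 0.27), and Ogn from 444 and 410 to 696 to 1147 (1.19 ± 0.21). Dcn overlapped between ages, at 300 and 1628 CPM at P12 and 97.2 to 574 later. Smoc1 rose from 98.6 and 137 CPM to 267 to 385 (1.45 ± 0.24), and Tnfrsf11b, or osteoprotegerin, the decoy receptor that restrains osteoclasts, from 235 and 391 to 545 to 793 (1.24 ± 0.26).

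Apoe and Apod also passed. Apoe, a lipoprotein that is also made in quantity by macrophages, was at 9552 and 9985 CPM at P12 and 21140 to 32320 later (1.55 ± 0.19), and Apod, a lipocalin, at 3771 and 6235 against 11670 to 23880 (1.89 ± 0.25). The 7 macrophage genes of the marker list, all of them detected, summed to 60.7 and 151 CPM at P12 and to 70.6 to 1795 CPM later, and had 0 calls in the same contrast. Their part in the rise of Apoe was not tested. Of 7 complement genes tested 2 rose and 0 fell (median 1.74): Serping1, the inhibitor of C1, from 512 and 397 CPM to 1167 to 1648 (1.74 ± 0.21, edgeR adjusted p = 0.00134), and C1ra, a C1 protease, from 15.2 and 21.2 to 54.1 to 110 (2.19 ± 0.37). S100a8, a neutrophil gene, was at 0 and 16.3 CPM at P12 and 26.5 to 122 later. The 5 neutrophil genes of the marker list summed to 3.79 and 29.3 CPM at P12 and 67.4 to 207.5 later in gated cells. They moved alike in other stromal cells (10.0 and 22.8, then 57.5 to 218) and in the Aldh1a2 and Ccl11 gate (9.73 and 16.75, then 51.1 to 190). The part of free RNA in the rise of S100a8 was not tested. Hspa1a, a heat shock gene, and Junb, an immediate-early gene, both known to respond to stress in many cell types, passed (2.56 ± 0.44 and 1.23 ± 0.24); Junb was the 1 of 11 immediate-early genes that did. The activin, BMP and TGF-beta ligands, receptors, antagonists and mediators, the Wnt genes, the retinoid genes and the 22 mesenchymal transcription factors had 0 calls by age.

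**Figure D4:**
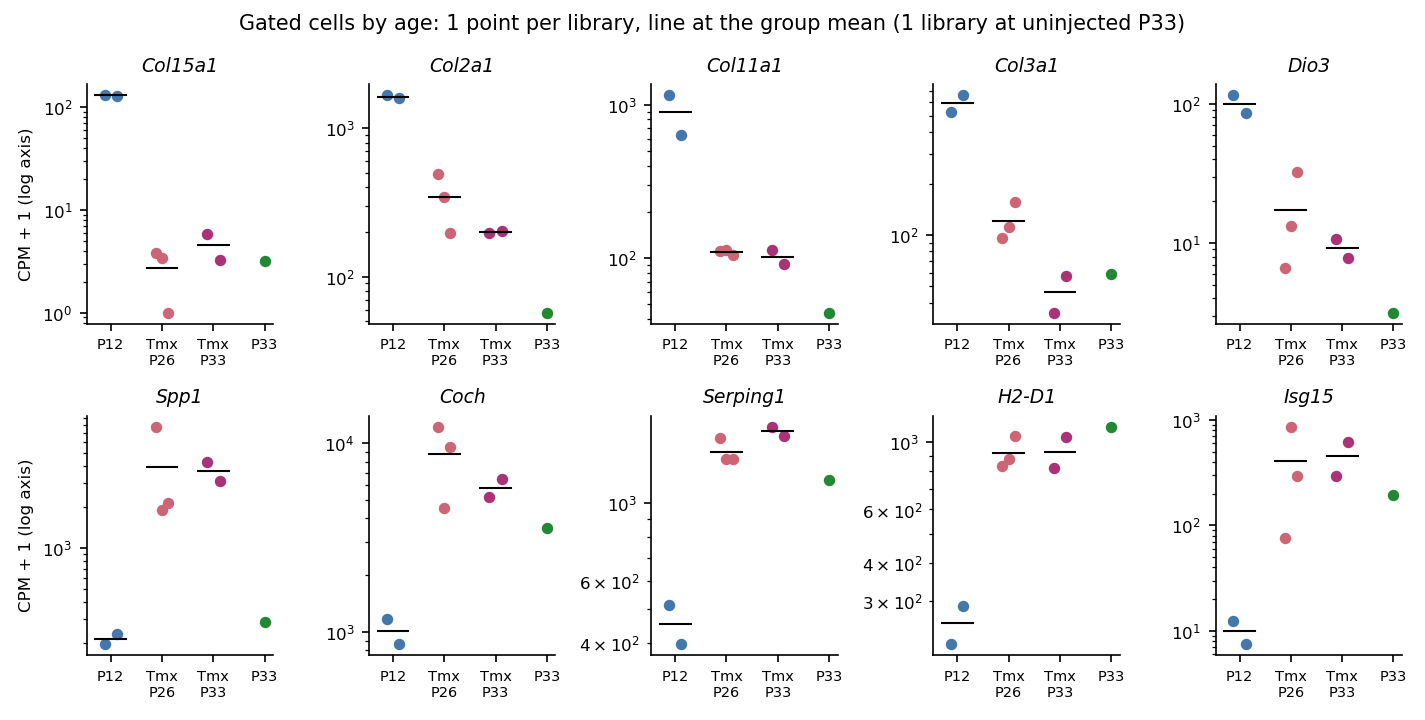
Summed UMI counts of gated cells (CPM + 1, log axis) for 5 genes that fell and 5 that rose after P12, 1 point per library with a line at the group mean. The P12 points lie apart from every later library for all 10 genes; for Spp1 the uninjected P33 library, at 283 CPM, lies next to P12 and not with the injected libraries.

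Of 13 interferon and antigen presentation genes tested 3 rose after P12 and 0 fell, with large spread between libraries. Interferon-stimulated genes are switched on when interferons bind their receptors on a cell, and their promoters carry the interferon-stimulated response element, whose core is a repeat of GAAA letters. The stretches just upstream of the starts of Isg15, a ubiquitin-like modifier, and of Ifit1 and Ifit3, which bind viral RNA, are shown because these genes were used below to count interferon-positive cells; capitals mark GAAA, any 2 bases and GAAA again, on either strand. They are the RefSeq sequences of build GRCm38.p6, chr4:156200819-156200918 on the minus strand for Isg15, chr19:34640769-34640888 on the plus strand for Ifit1 and chr19:34583359-34583528 on the plus strand for Ifit3, each ending 1 base before the annotated start.
Isg15: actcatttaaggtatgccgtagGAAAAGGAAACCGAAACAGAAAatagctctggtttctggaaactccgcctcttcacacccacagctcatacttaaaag
Ifit1: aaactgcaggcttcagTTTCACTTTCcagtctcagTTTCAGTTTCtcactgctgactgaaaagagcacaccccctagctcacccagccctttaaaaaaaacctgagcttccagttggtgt
Ifit3: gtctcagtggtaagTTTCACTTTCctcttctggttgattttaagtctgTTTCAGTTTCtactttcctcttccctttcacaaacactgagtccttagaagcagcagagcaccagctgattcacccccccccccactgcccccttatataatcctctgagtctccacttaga
In Isg15 the 3 matches overlap and begin 78, 72 and 66 bases before the start. Ifit1 has its matches 104 and 85 bases before the start, and Ifit3 156 and 122. The letters occur in 2.98% of the 32851 promoters in the same table, read over 250 bases upstream on both strands. A match is a description of the sequence and not a measured binding site.

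Isg15 was at 11.4 and 6.51 CPM in the P12 libraries, 74.4, 857 and 292 in Coch + Tmx P26, 292 and 622 in Coch + Tmx P33, with 192 in Coch P33. The later libraries thus all lay above P12 but ranged from 74.4 to 857 among themselves (log2 change 5.41 ± 1.04, edgeR adjusted p = 0.0304, lost without either Coch + Tmx P33 library or either P12 library). Rtp4, a chaperone induced by interferon, was at 0 and 3.26 CPM at P12 and 47.7 to 287 later (adjusted p = 0.0211), and with so few UMIs at P12 its size of change is uncertain. Ifitm3, a membrane protein that blocks virus entry, was steadier, at 736 and 693 CPM against 1924 to 3859 (2.05 ± 0.23, adjusted p = 0.000549). H2-D1, a class I antigen-presenting chain with near-identical relatives that may share its reads, was at 216 and 290 CPM against 822 to 1118 (2.07 ± 0.27). Ifitm3, Isg15 and H2-D1 were the 3 of the list of 13 that rose, and the list's median log2 change was 2.39. Ifit1 was at 3.79 and 1.63 CPM at P12 and 46.3 to 567 later and did not pass (adjusted p = 0.0591), nor did Ifi27l2a (0.0530), Bst2 (0.0594), B2m (0.0505) or Irf7 (0.0939), although their P12 values lay below every later library. With Coch + Tmx P26 rep 3 left out, Ifi27l2a and B2m passed (adjusted p = 0.0385 and 0.0276).

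UMIs of interferon-stimulated genes were detected in part of the cells. A cell was counted as interferon-positive when 2 or more of Isg15, Ifit1, Ifit3 and Irf7, the last a transcription factor of the same response, had a UMI after thinning to 2000 UMIs; this rule was set after the values were seen, and the shares are given with no test. They count cells with UMIs and not cells that express the genes, and the part of free RNA in them was not measured, since no cell type that should lack these genes was read. In the P12 libraries 0 of 44 and 0 of 67 gated cells were positive, which allows shares of up to 6.82% and 4.48% when 3 cells of each total are taken as the floor, and 8.04% and 5.36% by the exact binomial interval. In Coch + Tmx P26 the shares were 4.0% (6 of 150 cells), 48.8% (40 of 82, 95% exact binomial interval 37.6 to 60.1) and 25.8% (17 of 66), the last in the library labelled rep 3. Coch + Tmx P33 had 12.8% (5 of 39) and 30.2% (26 of 86). The uninjected Coch P33 library had 12.9% (9 of 70). Positive cells were thus found with and without tamoxifen after P12, and the shares ran from 4.0% to 48.8% within Coch + Tmx P26 alone. At full depth the shares were 11.3%, 51.8% and 31.8%, 33.3% and 39.5%, and 24.3% in the same order, and 0% and 1.49% at P12.

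The other cells of a library did not always go with the gated ones. In Coch + Tmx P26 rep 2, where 48.8% of gated cells were positive, 11.7% of other stromal cells, 5.08% of the Aldh1a2 and Ccl11 gate and 33.3% of macrophage barcodes did. In Coch + Tmx P33 rep 2 gated cells were not above the others, with 30.2% of gated cells (20.8 to 41.1), 35.1% of other stromal cells (25.5 to 45.6, overlapping), 52.0% of the Aldh1a2 and Ccl11 gate and 43.7% of macrophage barcodes. In Coch + Tmx P26 rep 1 all 4 sets lay between 4.0% and 5.0%, and at P12 the highest share was 1.56%. In Coch + Tmx P33 rep 1 the 4 shares, in the order given above, were 12.8%, 3.39%, 6.38% and 12.3%. At full depth they were 33.3%, 18.6%, 19.1% and 35.4%. Coch P33 had 12.9%, 4.46%, 1.23% and 5.56%, and 24.3%, 16.6%, 6.17% and 27.8% at full depth. For the library labelled Coch + Tmx P26 rep 3 the shares were 25.8%, 6.51%, 3.51% and 17.6%. At full depth they were close for the stromal sets, at 31.8%, 30.8% and 32.5%, with 52.9% of macrophage barcodes. Leaving out the gated droplets with macrophage or neuron genes gave 48.1% in Coch + Tmx P26 rep 2 and 29.2% in Coch + Tmx P33 rep 2. None of the 20 interferon ligand genes read had a UMI in the gated cells of any library, which says only that they were not detected at this depth.

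**Figure D5:**
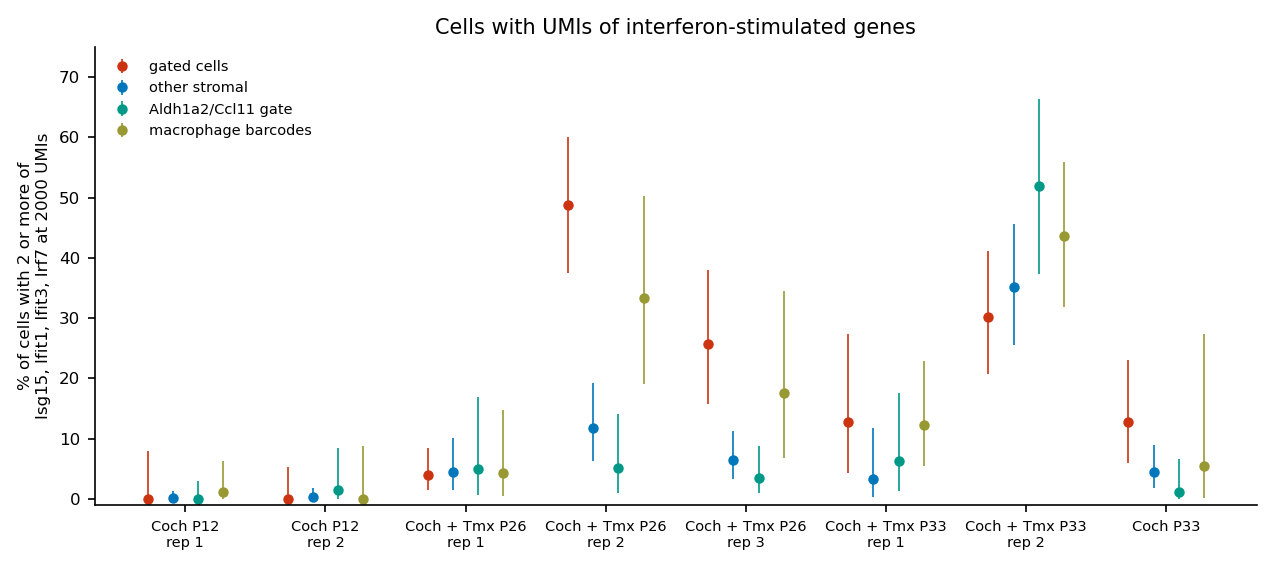
Percent of cells in each library with a UMI of 2 or more of Isg15, Ifit1, Ifit3 and Irf7 after thinning to 2000 UMIs, for gated cells, other stromal cells, the Aldh1a2 and Ccl11 gate and macrophage barcodes; lines are 95% exact binomial intervals, which cover counting error only. Gated cells stand above the other stromal sets in Coch + Tmx P26 rep 2 (48.8% against 11.7% and 5.08%) but not in Coch + Tmx P33 rep 2, and both P12 libraries are at or near 0.

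The injected groups at P33 and P26 had the same treatment by their labels and differed by age, but the library labelled Coch + Tmx P26 rep 3 went against its label in Atoh1. Between the groups 0 of 7775 genes (0.0%) passed edgeR's test, with 494 at an unadjusted p under 0.05, and DESeq2 called 3. Without that library edgeR called 0 of 7928 genes, with 732 at an unadjusted p under 0.05. Of those 3, Phlda1, a pleckstrin-homology gene that responds to growth signals, was at 300 against 83.8 CPM on average (log2 difference 1.85 ± 0.27, edgeR adjusted p = 0.117), and the others, Rps18-ps3 and Gm10263, are ribosomal pseudogene models whose reads may come from their parent genes. Among genes with higher counts, the test found 85% of simulated 4-fold and 17% of 2-fold changes in this contrast. The genes that changed after P12 had no call between the injected groups: Spp1 was at 3681 against 3920 CPM on average (-0.05 ± 0.48), Isg15 at 457 against 408 (0.26 ± 0.66) and Col11a1 at 101 against 109 (-0.09 ± 0.30), none of which passed, and the errors of these differences are wide. With that P26 library left out they were -0.33 ± 0.48 for Spp1, 0.11 ± 0.73 for Isg15 and -0.09 ± 0.33 for Col11a1, and Phlda1 had 1.94 ± 0.31.

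Between Coch + Tmx P33 and the uninjected Coch P33 library, 0 of 7775 genes (0.0%) passed edgeR's test, with 354 at an unadjusted p under 0.05, and DESeq2 called 2. The uninjected group is 1 library that is assumed to vary like the others. Among genes with higher counts, the test found 39% of simulated 4-fold changes here, so that a large difference could be missed. Dio2, the thyroid hormone-activating deiodinase, was among the DESeq2 calls: it averaged 359 CPM in the injected P33 libraries against 41.1 in Coch P33 (log2 difference 3.02 ± 0.53, edgeR adjusted p = 0.238; DESeq2 adjusted p = 0.00475). Spp1 averaged 3681 CPM against 283 (3.61 ± 0.79, edgeR adjusted p = 0.703). Both genes were lower in Coch P33 than in every library labelled as injected. That includes Coch + Tmx P26 rep 3, which went against its label in Atoh1. While Spp1 was also low at P12 (193.5 and 231 CPM), Dio2 was at 178 and 192 CPM there. Col2a1 averaged 197.5 against 56.2 CPM (1.73 ± 0.50, edgeR adjusted p = 0.981) and Mfap4 325 against 618 (-1.03 ± 0.47, adjusted p = 1). Coch averaged 5824 against 3567 CPM (0.63 ± 0.46) and Isg15 457 against 192 (1.19 ± 0.95), neither past the threshold. The other DESeq2 call, AY036118, is a ribosomal RNA-like transcript that averaged 25.1 CPM in the injected P33 libraries and 875.5 in Coch P33.

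Whether the change after P12 was particular to these cells was tested as the difference between the age change in gated cells and that in other stromal cells of the same libraries. edgeR called 0 of 8657 genes (0.0%), with 450 at an unadjusted p under 0.05, and DESeq2 called 12. Among genes with higher counts, edgeR's test found 68% of simulated 4-fold and 12% of 2-fold differences here. The absence of calls therefore does not show that the age changes were shared with other stromal cells. Col3a1 and Dcn were among the 12 genes called by DESeq2 and are read as no result, because they helped to choose the other stromal cells. The fall of Col15a1 was greater in gated cells by -3.12 ± 0.46 on the log2 scale (edgeR adjusted p = 0.0887, DESeq2 0.0457) and that of Kcnk2 by -2.19 ± 0.38 (0.0943 and 0.0196). The difference for Col3a1, -1.86 ± 0.32, is given as a description with no test. Ptn had a difference of -1.11 ± 0.19 (0.0943 and 3.34e-05). Gper1, a membrane oestrogen receptor that rose in gated cells from 18.97 and 26.04 CPM at P12 to 65.7 to 122 later, differed by 2.52 ± 0.48 (0.135 and 0.0485). The rise of Coch was 1.56 ± 0.40 greater in gated cells but did not pass (edgeR adjusted p = 0.504), and the changes of Spp1 (-0.29 ± 0.87) and Isg15 (0.59 ± 1.09) had differences within their errors. With Coch + Tmx P26 rep 3 left out edgeR called 0 of 8561 genes, with 386 at an unadjusted p under 0.05, and the difference for Coch was 1.28 ± 0.20 (edgeR adjusted p = 0.0646) and that for Spp1 -0.63 ± 0.83. Without the 86 droplets with macrophage or neuron genes edgeR called 28 genes, and without Coch + Tmx P26 rep 2 it called 20, so the answer for single genes rests on those choices.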

How the data were processed

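Cells of dissected mouse organs of Corti were profiled by droplet single-cell RNA-seq (10x Genomics 3′ v2). The authors aligned and counted the reads with Cell Ranger (version not given in the sources used here) against mm10, and deposited UMI counts per gene and barcode for 8 libraries (27998 genes listed). Barcodes with at least 500 genes and under 25% mitochondrial UMIs were kept; gated cells, other stromal cells and the Aldh1a2 and Ccl11 gate are defined in the results. No doublets were removed, and leaving out barcodes called by Scrublet (scanpy 1.11.5, 0.8% expected per 1000 barcodes) was an alternative. The members and gene lists were chosen with earlier results of these data known.

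UMI counts were summed per library and cell set, with at least 10 cells per library, filtered with filterByExpr, scaled by TMM and tested with edgeR 4.0.16 (glmQLFit and glmQLFTest, R 4.3.3) with p-values adjusted by Benjamini and Hochberg's method across every gene tested (threshold 0.05). Age contrasts used the 4 groups in 1 fit, later ages being the mean of 3 groups; comparisons of cell sets had the library as a block. DESeq2 1.42.0 was an alternative. CPM are UMIs per 1000000 UMIs of the set, and a printed change is the fitted log2 value, which for genes with few UMIs depends on the prior count. Cells were thinned to 2000 UMIs where shares with a UMI are compared. Shares of barcodes were computed with Python 3.11.15 and SciPy 1.17.1; the permutation test planned for them is not reported, since the rule genes that set the shares also differed in level between ages. Named genes were the 12 largest rises and 12 largest falls past the threshold with groups apart (or the same direction in every library) and at least 50 CPM in the higher mean (6 and 6 for the contrasts within P33 and of the difference in age change), leaving out rule genes and hemoglobin, mitochondrial, ribosomal and unnamed models, plus members of the gene lists. Genes named because DESeq2 called them, and Apoe, Apod, Col9a1, Smoc1 and Tnfrsf11b in the contrast by age, were chosen after their values were seen. The scripts were tested on simulated counts, in which the changed genes were drawn only from those with higher counts. In the contrast by age, 11 of the 132 genes called in the simulation had not been changed. The paper calls its replicates biological and gives every group the same number of them. The labels differ from this, with 3 libraries in Coch + Tmx P26 and 1 in Coch P33. They also do not say whether libraries of a group came from separate animals. The p-values therefore measure the spread between these libraries. Intervals on shares are 95% exact binomial and cover counting error only. Upstream sequences are RefSeq's. Some listed genes are not reported here.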

Additional observations from a re-analysis of the deposited data

How the results depend on the processing

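The difference in the share of gated barcodes kept its direction in every alternative: 6.89 points with 2 of the 5 genes required and 4.04 with 4, 7.37 without called doublets and 7.45 without the droplets that held macrophage or neuron genes, called mixed here and left out as an alternative chosen after seeing the data, 7.94 with under 10% mitochondrial UMIs, 6.44 with thinning and 25.2 over stromal barcodes; no test is read from it. Leaving out 1 library gave 5.11 to 9.54 points.

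The 71 genes changed after P12 became 315 with no expression filter and 91 with DESeq2 (55 shared with the 71), and 22 to 122 without 1 library; thinning gave 86 and 54 to 106 genes were called with 4 or 2 of the 5 genes required. Of the 22 genes called without Coch P12 rep 1, 21 were among the 71, and of the 63 called without Coch P12 rep 2, 28 were. Replicate numbers are shared between groups, but same-numbered libraries did not deviate together (correlations of -0.064 to 0.0717), so the numbers do not pair them; with a replicate block the counts were 148 for later ages (67 of the 71 among them) and 26 for Coch + Tmx P33 against P26. The latter count was 0 by edgeR, 125 with no filter, 3 with DESeq2, 3 thinned, 1 without mixed droplets, and 0 to 3 without 1 library. For Coch + Tmx P33 against Coch P33 it was 0, and 57 with no filter, 2 with DESeq2, 1 thinned, 1 without mixed droplets, 1 with 2 of the 5 genes required, and 0 to 2 without 1 library; leaving out Coch P33 and a replicate block could not be run. The age change that differed from other stromal cells gave 0, and 101 with no filter, 28 without mixed droplets, 13 and 8 with 2 or 4 of the 5 genes required, 12 with DESeq2, 2 with under 10% mitochondrial UMIs, 2 thinned, and 0 to 20 without 1 library (20 without Coch + Tmx P26 rep 2, 7 without Coch P33). The counts against other stromal cells and against the Aldh1a2 and Ccl11 gate fell to 747 of 4130 genes tested (18.1%) and 831 of 3156 (26.3%) when cells were thinned, and were 1085 to 1469 and 1453 to 1691 without 1 library. Apart from what is stated, the cause of these shifts was not tested.

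With 2 of the 5 genes required, the differences from other stromal cells turned to 0.013 for Gjb6, 0.44 for Hba-a1, 0.40 for Hba-a2, 0.30 for Hbb-bs and 0.38 for Hbb-bt, and with thinning that from the Aldh1a2 and Ccl11 gate turned to 0.27 for Otor. No other listed or named gene changed direction after a call in the alternatives run. The contrast with the uninjected P33 group is limited by its 1 library, and genes with few UMIs at P12, such as Rtp4, have an uncertain size of change.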
